A study of Mus musculus with 6 samples.

Results

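Rab GTPases are the largest family of small G proteins that steer vesicles between membrane compartments, and they were followed here in whole mouse pancreatic islets. All genes annotated as protein coding whose symbol is Rab followed by a number and at most a letter and a further digit were taken, which gave 59 of the 54556 genes in the table. They were divided by symbol into 7 granule Rabs (the Rab3, Rab27 and Rab37 genes) and 52 others. No expression value was used to choose them.

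The islets came from C57BL/6 mice on normal chow at 8 weeks of age. The control group held 3 libraries from Mettl3 flox/flox mice, and the other group held 3 libraries labelled beta-Mettl3-KO, from Mettl3 flox/flox mice that also carry RIP-Cre. Mettl3 encodes the enzyme that writes N6-methyladenosine (m6A) on mRNA, and RIP-Cre is Cre recombinase under a rat insulin promoter, which acts in β cells. Both groups carry the floxed allele. No library here carries Cre alone, so an effect of Cre and an effect of the deletion cannot be told apart.

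A Rab protein cycles between a GDP-bound form in the cytosol and a GTP-bound form on a membrane, where it recruits effector proteins. Exchange factors, many with a DENN domain, switch a Rab on, and GTPase-activating proteins with a TBC domain switch it off. In β cells Rab3 proteins and Rab27a sit on insulin granules and bring them to the plasma membrane through effectors such as granuphilin (Sytl4) and the RIM proteins. Rab37 has also been placed on insulin granules. The other Rabs serve the route from endoplasmic reticulum (ER) to Golgi, endosomes, lysosomes, autophagy and the cilium.

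Levels are FPKM (fragments per gene length and sequencing effort) on the median-of-ratios scale that the deposited values already carry. They rest on 16398862 to 18387313 recovered reads per library. Differences are labelled knockout minus flox/flox on the log2(FPKM + 0.5) scale, with standard errors from limma. A gene passed at a Benjamini-Hochberg adjusted p under 0.05 over the 14497 genes with a mean of at least 1 FPKM. No label says whether these samples came from different animals. The p-values therefore measure only the spread between libraries, which may be technical. Below, control and knockout-labelled libraries carry their replicate numbers.

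Mettl3 itself was at 3.42, 2.89 and 3.93 FPKM in flox/flox libraries and at 4.06, 4.20 and 4.15 in libraries labelled knockout (log2 difference 0.25 ± 0.11, adjusted p = 0.12). This sum over the whole gene does not check the deletion of some exons, so each direction below is that of the libraries labelled knockout. Of 12 tested β-cell markers 11 fell, and their summed level was 257208 to 319504 FPKM in flox/flox and 112151 to 125489 FPKM in labelled-knockout libraries. All 12 tested lymphocyte markers rose, from sums of 17.1 to 34.4 FPKM to sums of 1229 to 1963 FPKM. All 12 tested enterocyte markers rose, from 48.5 to 59.1 FPKM to 149, 911 and 474 FPKM in knockout-labelled libraries 1 to 3. Alpi, an enterocyte phosphatase, had 0 in all flox/flox libraries. It and other markers of both lists passed the filter only through the labelled-knockout libraries. Examples are Cd79b and Fabp2, with flox/flox means of 0.111 and 0.0956 FPKM. Such genes could only be called as rises, so the counts of lymphocyte and enterocyte markers were partly fixed by the filter. Of 12 tested acinar markers 11 fell, from 974, 2848 and 1527 FPKM in control libraries 1 to 3 to between 498 and 763 FPKM. All 12 endothelial markers fell, from sums of 658 to 687 FPKM to sums of 343 to 387 FPKM. In bulk islets, fewer cells of a type and less RNA per cell cannot be told apart, and the part of these changes in the Rab results was not tested.

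Rab transcripts moved by small amounts and in both directions, with more falls than rises. Of 59 members 45 passed the filter on low values. Of these, 13 fell, 5 rose and 27 did not pass, a called share to be read against 34.0% of all tested genes (17.2% lower and 16.9% higher). With each library scaled to its own total reads, a choice that moved the median of all genes from -0.0045 to 0.36, 4 Rabs passed as lower and 27 as higher, against 4.94% and 52.1% of all tested genes. The groups did not overlap for 23 of the 45, against 50.5% of all tested genes. The median log2 difference was -0.09 for Rabs and -0.0045 for all tested genes. No Rab passed with a difference of 1 or more on the log2 scale, which 1129 genes did over the whole table.

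Falls were found at every level of expression. Of the 8 Rabs with a mean of 30 FPKM or more, 6 fell and 0 rose by median-of-ratios scaling, while 0 were lower and 3 higher by own-total scaling. Over all 1098 tested genes of that level, 32.1% were lower and 13.8% higher by median of ratios, and 10.3% and 53.0% by own totals. Of 19 Rabs between 10 and 30 FPKM 4 fell and 3 rose, beside 26.6% and 14.97% of all genes there. Of 18 between 1 and 10 FPKM 3 fell and 2 rose, beside 12.8% and 17.8%. The larger falls, those of Rab24, Rab36, Rab6a and Rab34, were of genes under 30 FPKM. Among genes of at least 5 FPKM tested alone, 16 of 35 Rabs passed, beside 40.9% of all 7557 genes in that test. These were 12 lower and 4 higher Rabs, against 24.4% and 16.5% of those genes. Without knockout-labelled library 3, 7 Rabs were lower and 1 higher, and the share called over all genes dropped as well, to 9.71% lower and 9.07% higher. Without knockout-labelled libraries 2 and 3 together, the ones with the most enterocyte transcripts, 4 Rabs were lower and 1 higher. That fit sets a single library against 3, takes its spread from the controls alone, and called 7.98% of all genes tested in it.

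**Figure D1:**
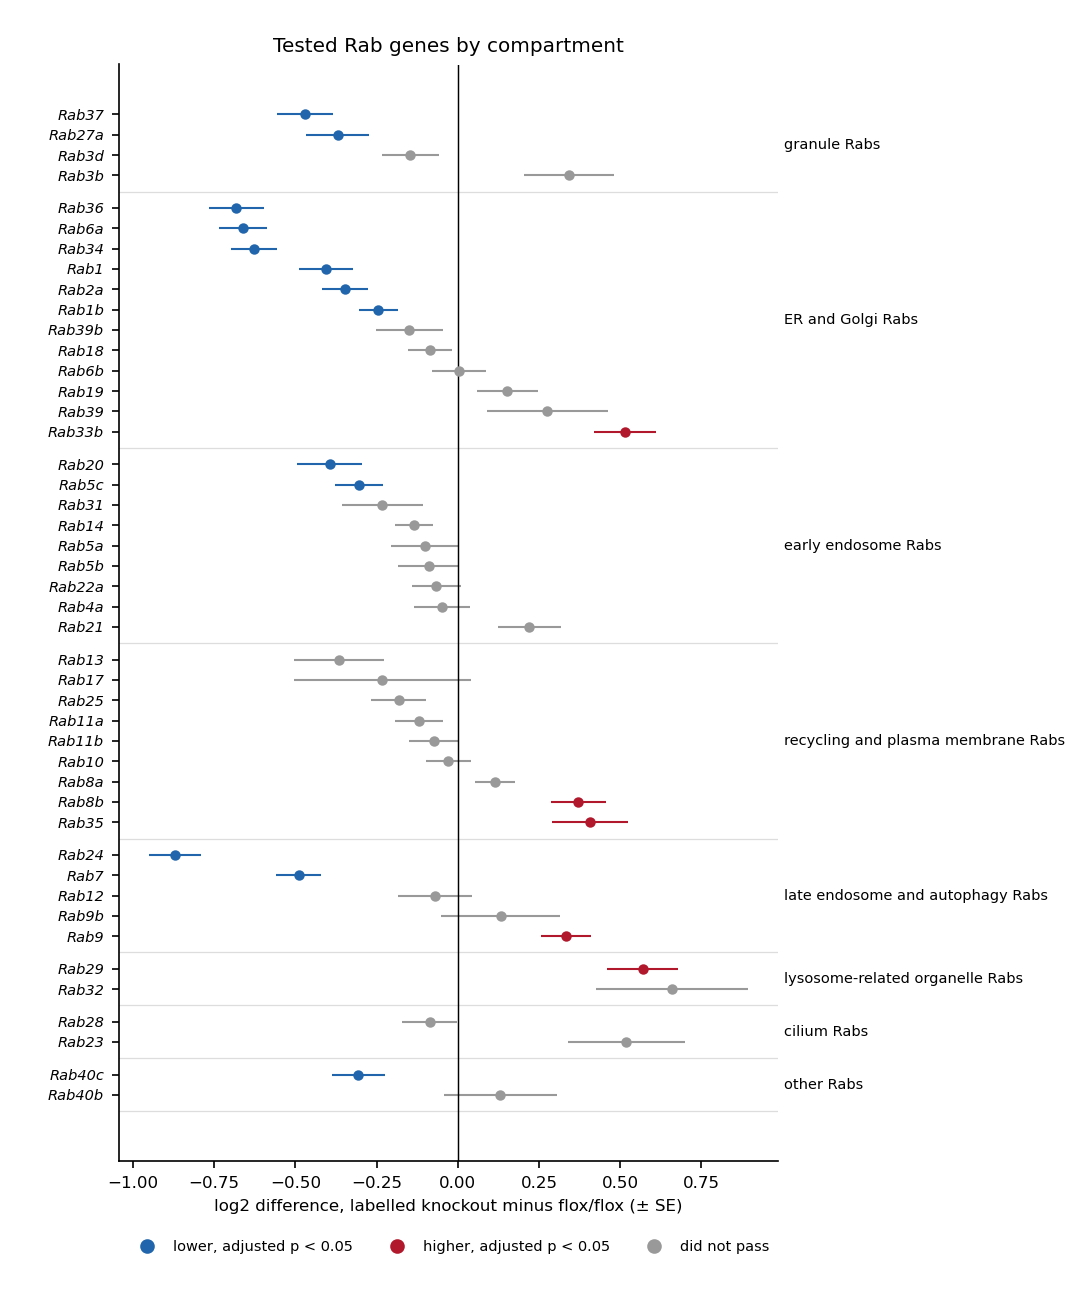
Log2 difference (labelled knockout minus flox/flox, x axis) of each of the 45 tested Rab genes, grouped by compartment; points are limma estimates with bars of 1 standard error, blue for lower, red for higher and grey for genes that did not pass. Falls reach from -0.24 for Rab1b to -0.87 for Rab24 and rises from 0.33 for Rab9 to 0.57 for Rab29; with own-total scaling Rab27a, Rab2a, Rab1b, Rab5c and Rab40c turn direction.

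Among the granule Rabs, 2 of the 4 tested genes fell (Rab37 and Rab27a) and 0 rose, while Rab3d and Rab3b did not pass. The share of genes called lower over the whole table was 17.2%. It was 32.1% at 30 FPKM or more and 26.6% between 10 and 30 FPKM, the levels of these 4 genes. The order of levels was the same in both groups, with Rab27a first, then Rab3d, Rab37 and Rab3b, and with Rab3c, Rab27b and Rab3a under 1 FPKM on average.

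Rab27a, the Rab that docks insulin granules through granuphilin, lies on the plus strand of chromosome 9 from 73044854 to 73097629 (GRCm38). It was at 41.7, 46.6 and 43.5 FPKM in flox/flox libraries and at 38.6, 31.3 and 32.1 FPKM in labelled-knockout libraries. Replicate 1 of the labelled knockouts stood nearest to the controls, and the groups did not overlap. The mean went from 43.9 ± 2.50 to 34.0 ± 4.03 FPKM (SD, n = 3 each), a fall of 0.37 ± 0.10 (SE) on the log2 scale (adjusted p = 0.028) that turned to 0.03 with own-total scaling (adjusted p = 0.789). The call was lost in 5 of the 6 fits that left out a library. These were control libraries 1, 2 and 3 (adjusted p = 0.0508, 0.0762 and 0.0767) and knockout-labelled libraries 2 and 3 (adjusted p = 0.0736 and 0.102). It was also lost when genes of every level were tested (adjusted p = 0.053). That fit called 13.2% of all genes, against 34.0%, which applies to each later call lost in it.

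Rab37, on the plus strand of chromosome 11 from 115091431 to 115162236, was at 26.3, 21.5 and 24.6 FPKM in flox/flox and at 17.3, 16.8 and 17.5 FPKM in labelled-knockout libraries. Labelled-knockout libraries lay close together and below every control. The mean went from 24.1 ± 2.44 to 17.2 ± 0.357 FPKM (SD, n = 3 each), with a log2 difference of -0.47 ± 0.09 (SE, adjusted p = 0.00776). The call stood in all 6 fits without a library, with the highest adjusted p at 0.0331. It did not stand with own-total scaling (-0.07, adjusted p = 0.455).

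Rab3d, which is also a Rab of zymogen granules in acinar cells, lies at 21907491 to 21918192 of chromosome 9, minus strand. Its level was 34.1, 38.0 and 32.5 FPKM in flox/flox and 34.1, 29.5 and 30.7 FPKM in labelled-knockout libraries. The groups overlapped, and control library 2 was highest, as it was for the summed acinar markers. Control libraries 1 and 3 did not follow the order of those markers. The log2 difference was -0.15 ± 0.09 (SE, adjusted p = 0.244). With own-total scaling it was 0.25 and passed as higher (adjusted p = 0.0362).

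Rab3b was the tested granule Rab with a positive difference. On the plus strand of chromosome 4 from 108879063 to 108943324, it had 8.18, 11.4 and 9.19 FPKM in flox/flox and 14.0, 11.4 and 11.3 FPKM in labelled-knockout libraries. The highest control and the lower labelled knockouts were level, and the gene missed the threshold, at a log2 difference of 0.34 ± 0.14 (SE, adjusted p = 0.102). It passed as higher with own-total scaling (0.73, adjusted p = 0.00484), and without control library 2 (0.47, adjusted p = 0.039).

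The remaining granule Rabs were below the filter and were not tested. Rab3c had 112, 79 and 116 reads in flox/flox and 210, 239 and 245 in labelled-knockout libraries, that is 0.572 ± 0.104 and 0.944 ± 0.0947 FPKM (SD, n = 3 each), with no overlap (two-sided exact permutation p = 0.10, the lowest possible with 3 against 3). Rab27b, a paralogue of Rab27a that acts in acinar and other secretory cells, was at 0.229, 0.706 and 0.441 FPKM in flox/flox and 0.593, 0.397 and 0.524 FPKM in labelled-knockout libraries. The flox/flox values of Rab27b followed the order of the summed acinar markers. Those sums were lower in every labelled-knockout library, whereas Rab27b overlapped between groups, at means of 0.459 FPKM in flox/flox and 0.505 FPKM in labelled-knockout libraries. A part of acinar cells in its level was not tested.

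Rab3a, the Rab3 gene of synaptic vesicles, was nearly absent from every library. It had 5, 1 and 2 reads in flox/flox and 1, 2 and 6 reads in labelled-knockout libraries, or 0.0215 to 0.148 FPKM. Only 1.30% of its exonic bases overlap another gene, Mpv17l2 on the opposite strand. At this depth a difference between the groups was not detectable for it.

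**Figure D2:**
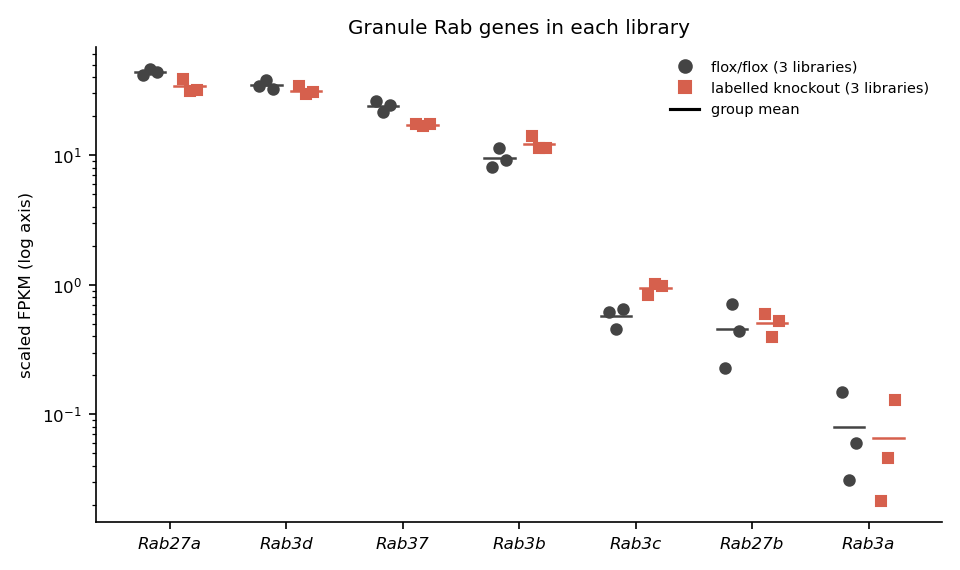
Scaled FPKM (y axis, log scale) of the 7 granule Rab genes in each library, with dark circles for flox/flox, red squares for labelled knockout and short lines for group means. Rab27a and Rab37 do not overlap between groups, lower in the labelled knockout by this scaling and with Rab27a at a log2 difference of 0.03 by own-total scaling; Rab3a stays under 0.15 FPKM in every library.

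Summed over its 7 members, the granule Rab level was 111, 119 and 111 FPKM in flox/flox and 106, 90.5 and 93.2 FPKM in labelled-knockout libraries. The groups did not overlap, with means of 114 ± 4.39 and 96.4 ± 8.02 FPKM (SD, n = 3 each; exact two-sided permutation p = 0.10), but with own-total scaling the order turned, to 99.2 ± 4.83 and 112 ± 7.24. The 52 other Rabs summed to 784 ± 6.77 and 675 ± 28.9 FPKM, and to 685 ± 14.4 and 781 ± 19.5 with own-total scaling, also without overlap (exact p = 0.10 for each). Of all Rab FPKM, granule Rabs took 12.4%, 13.03% and 12.5% in flox/flox and 12.97%, 12.2% and 12.3% in labelled-knockout libraries. This share does not depend on the scaling of a library, and it overlapped between groups (exact p = 0.50), and no difference between granule Rabs and the rest was detectable.

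Within the granule Rabs the proportions differed between the groups. Rab3b made up 7.36%, 9.58% and 8.29% of granule Rab FPKM in flox/flox and 13.3%, 12.6% and 12.1% in labelled-knockout libraries. Every labelled knockout lay above every control for Rab3b and below every control for Rab27a. Rab27a took 38.7 ± 1.02% and 35.2 ± 1.22% (SD, n = 3 each). Rab3d took 30.7 ± 1.36% and 32.6 ± 0.326%, without overlap, and Rab37 took 21.3 ± 2.87% and 17.9 ± 1.31%, with overlap. Inside the Rab3 genes alone, Rab3d went from 77.4 ± 1.61% to 70.4 ± 0.815% and Rab3b from 21.2 ± 1.94% to 27.3 ± 1.24%. Each of these differences without overlap had an exact permutation p of 0.10, or 0.207 adjusted over the 31 sums and shares compared.

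**Figure D3:**
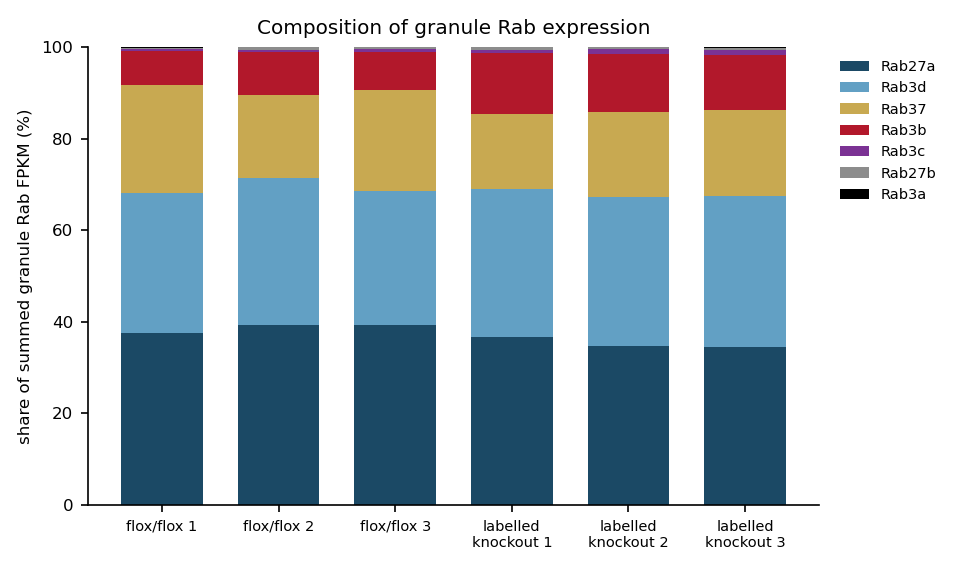
Share of summed granule Rab FPKM (y axis, percent) taken by each of the 7 genes in each of the 6 libraries (x axis), a measure that library scaling does not change. The Rab3b segment is 7.36% to 9.58% in flox/flox and 12.1% to 13.3% in labelled-knockout libraries.

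The start sites of 48 of the 59 Rab genes have a promoter window in RefSeq (GRCm38.p6). Rab37 is not among them. The bases just upstream are shown for 3 granule Rabs and for the Rabs with the largest called fall and rise, without bases that the table places inside the gene. Capitals mark the motifs searched for on both strands, and the coordinates follow each name.
Rab27a, chr9:73044560-73044809, plus strand: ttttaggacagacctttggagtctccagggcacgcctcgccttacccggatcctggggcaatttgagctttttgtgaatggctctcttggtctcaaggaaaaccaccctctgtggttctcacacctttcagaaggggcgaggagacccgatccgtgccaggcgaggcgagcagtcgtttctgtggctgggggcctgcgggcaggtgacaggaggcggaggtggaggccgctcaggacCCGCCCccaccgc
Rab3d, chr9:21918193-21918433, minus strand: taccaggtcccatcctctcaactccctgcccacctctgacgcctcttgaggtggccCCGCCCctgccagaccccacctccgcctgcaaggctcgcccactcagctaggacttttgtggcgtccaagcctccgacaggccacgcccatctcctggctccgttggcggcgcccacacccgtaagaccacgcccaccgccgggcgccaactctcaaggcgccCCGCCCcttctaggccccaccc
Rab3b, chr4:108878820-108879062, plus strand: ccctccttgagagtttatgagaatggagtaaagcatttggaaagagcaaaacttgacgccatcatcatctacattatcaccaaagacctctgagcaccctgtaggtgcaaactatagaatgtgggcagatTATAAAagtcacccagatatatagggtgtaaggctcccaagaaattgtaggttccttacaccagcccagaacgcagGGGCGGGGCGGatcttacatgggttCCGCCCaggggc
Rab24, chr13:55321981-55322230, minus strand: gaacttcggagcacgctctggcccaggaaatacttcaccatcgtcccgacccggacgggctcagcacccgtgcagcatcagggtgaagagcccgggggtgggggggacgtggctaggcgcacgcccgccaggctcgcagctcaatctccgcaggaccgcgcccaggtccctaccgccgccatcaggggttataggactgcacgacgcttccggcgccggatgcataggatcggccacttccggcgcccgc
Rab29, chr1:131867027-131867223, plus strand: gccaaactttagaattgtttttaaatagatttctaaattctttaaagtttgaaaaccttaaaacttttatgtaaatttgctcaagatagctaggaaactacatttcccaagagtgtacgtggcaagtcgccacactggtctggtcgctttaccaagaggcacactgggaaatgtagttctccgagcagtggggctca

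The motifs were the GC box GGGCGG, the CCAAT box CCAAT, the E-box CACGTG, the TATA box TATAAA and the cAMP response element TGACGTCA. The windows shown hold 1 GC box for Rab27a, 2 for Rab3d and 3 for Rab3b, of which a pair overlap, and Rab3b also holds a TATA box. None of these motifs was found in the windows shown for Rab24 and Rab29, whose GC content is 68.8% and 39.1%. Over 250 upstream bases, a GC box was present in 33 of the 48 Rab windows (68.8%) and in 32.7% of all 32851 windows of the reference, which include those of noncoding genes. The CCAAT box was in 45.8% and 33.8%, the E-box in 8.33% and 6.02%, the TATA box in 8.33% and 12.4% and the cAMP response element in 4.17% and 1.55%. These are matches of letters, not measured binding sites.

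Among 12 tested Rabs of the ER and Golgi, the compartment with the most members tested, 6 were lower, 1 was higher and 5 did not pass, beside 17.2% lower and 16.9% higher over all tested genes. Their median log2 difference of -0.20 turned to 0.20 with own-total scaling. Rab2a, Rab1 and Rab1b lie at 30 FPKM or more, where 32.1% of all tested genes were lower. For Rab6a and Rab34, between 10 and 30 FPKM, that share was 26.6%. Rab6a, which carries vesicles from the Golgi, was at 31.0, 28.0 and 28.0 FPKM in flox/flox and at 17.1, 19.0 and 18.3 FPKM in labelled-knockout libraries. It fell by 0.66 ± 0.07 (SE, adjusted p = 0.00125), in all 6 fits without a library. With own-total scaling the difference was -0.26 (adjusted p = 0.0203). Its close paralogue Rab6b was at 5.68, 6.70 and 6.48 FPKM and at 6.12, 6.58 and 6.16 FPKM, a log2 difference of 0.0029 ± 0.08 (adjusted p = 0.985), so Rab6a took 82.1 ± 2.09% of the FPKM of both genes in flox/flox and 74.2 ± 0.584% in labelled-knockout libraries (SD, n = 3 each; exact permutation p = 0.10). Exons of Mrpl48 on the opposite strand overlap 19.0% of Rab6a's exonic bases. Mrpl48 was also lower, at 4.69, 5.001 and 4.31 FPKM against 3.18, 2.85 and 2.89, and whether reads of the genes were shared was not tested.

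Rab34 and Rab36 are near relatives linked to the Golgi, and both fell by similar amounts. Rab34, which also acts in cilium formation, was at 14.0, 12.6 and 12.9 FPKM in flox/flox and 7.96, 8.36 and 8.71 FPKM in labelled-knockout libraries (-0.63 ± 0.07 SE, adjusted p = 0.00137). Rab36 was at 12.95, 11.3 and 12.6 FPKM and at 6.87, 7.64 and 7.93 FPKM (-0.68 ± 0.08, adjusted p = 0.0019). Every labelled knockout was below every control by a wide gap, and both calls held in all 6 fits without a library and with own-total scaling (-0.24 and -0.30).

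The abundant Rabs of early secretion fell less. Rab1, the table's symbol for Rab1a, which directs ER vesicles to the Golgi, was at 57.6, 70.0 and 63.0 FPKM in flox/flox and 48.7, 46.3 and 48.1 FPKM in labelled-knockout libraries (-0.41 ± 0.08, adjusted p = 0.0125). Rab2a, the highest Rab of all, acts between ER and Golgi and in granule maturation, and was at 115, 117 and 112 FPKM against 96.7, 85.7 and 88.6 (-0.35 ± 0.07, adjusted p = 0.0114). Rab1b, which shares the role of Rab1, was at 59.2, 56.8 and 58.0 FPKM against 50.8, 49.2 and 46.8 (-0.24 ± 0.06, adjusted p = 0.024). No group overlapped for these genes, but with own-total scaling Rab1 was at -0.0028 (adjusted p = 0.981), Rab2a turned to 0.06 (adjusted p = 0.461) and Rab1b turned to 0.16, then passing as higher (adjusted p = 0.0476). The call of Rab2a was lost without knockout-labelled library 3 (adjusted p = 0.0574). That of Rab1b was lost without control library 1 or 3 or knockout-labelled library 3 (adjusted p = 0.0739, 0.0789 and 0.106), and with quantile normalization (adjusted p = 0.195).

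Rab33b, a Golgi Rab with a part in autophagosome formation, went the other way. It was at 10.2, 9.51 and 9.73 FPKM in flox/flox and 16.4, 13.2 and 13.3 FPKM in labelled-knockout libraries, a rise of 0.51 ± 0.10 (SE, adjusted p = 0.00878). The rise held in all 6 fits without a library and was 0.90 with own-total scaling. Exons of another gene on the opposite strand overlap 18.7% of the exonic bases of Rab33b, and whether reads were shared was not tested. Rab18, a Rab of the ER and lipid droplets, stayed at 34.5 to 36.6 and 31.4 to 35.4 FPKM and did not pass (-0.08 ± 0.07, adjusted p = 0.378), and it was at 0.32 with own-total scaling (adjusted p = 0.00622).

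Of 5 tested Rabs of late endosomes and autophagy 2 were lower and 1 was higher, beside 17.2% lower and 16.9% higher over all tested genes. Rab24, which takes part in autophagy, had the largest called difference of any Rab. It was at 13.2, 15.2 and 14.4 FPKM in flox/flox and 7.38, 8.10 and 7.23 FPKM in labelled-knockout libraries, falling by 0.87 ± 0.08 (SE, adjusted p = 0.000715) in all 6 fits without a library and by 0.48 with own-total scaling (adjusted p = 0.00423). Exons of Prelid1 on the opposite strand cover 62.4% of its exonic bases, and the strandedness of the libraries is not given in the sources used here. Prelid1 itself was at 22.1 to 23.6 FPKM in flox/flox and 23.4 to 27.5 FPKM in labelled-knockout libraries. Whether reads of these genes were shared was not tested.

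Rab7, the Rab of late endosomes and lysosomes and the second most abundant member, was at 87.2, 79.7 and 81.3 FPKM in flox/flox and 61.1, 55.9 and 59.4 FPKM in labelled-knockout libraries. It fell by 0.49 ± 0.07 (SE, adjusted p = 0.00309) in all 6 fits without a library, and did not pass with own-total scaling (-0.09, adjusted p = 0.261). Rab9, which returns receptors from late endosomes to the Golgi, was at 10.8, 10.3 and 10.1 FPKM against 14.4, 12.6 and 12.7. It rose by 0.33 ± 0.08 (adjusted p = 0.0175), a call lost without control library 3 or knockout-labelled library 3 (adjusted p = 0.0633 and 0.0507). For Rab7 every labelled knockout was below the controls, and for Rab9 every one was above.

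Of 9 tested early endosome Rabs 2 fell (22.2%) and 7 did not pass, a share near the 17.2% of all tested genes called lower. Rab5c, the most abundant of the Rab5 genes that organise early endosomes, was at 44.2, 49.0 and 49.3 FPKM in flox/flox and 38.1, 40.6 and 36.4 FPKM in labelled-knockout libraries (-0.30 ± 0.07, adjusted p = 0.0219). Its paralogues Rab5a and Rab5b overlapped between the groups, at 25.1 to 29.2 against 21.8 to 27.1 FPKM and at 18.3 to 20.2 against 15.9 to 19.5 FPKM (adjusted p = 0.498 and 0.495). Rab5c's share of the 3 genes was 50.8 ± 1.97% and 47.2 ± 4.04% (SD, n = 3 each) and overlapped (exact permutation p = 0.30). Its call was lost without control library 2 or 3 or knockout-labelled library 3 (adjusted p = 0.057, 0.0795 and 0.0906) or with quantile normalization (adjusted p = 0.0916), and with own-total scaling it turned to 0.10 (adjusted p = 0.338).

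Rab20, found on endosomes and phagosomes, was at 5.56, 6.26 and 5.18 FPKM in flox/flox and 4.62, 4.11 and 3.85 FPKM in labelled-knockout libraries, without overlap. It fell by 0.39 ± 0.10 (adjusted p = 0.025). Without control library 1 or 2, or knockout-labelled library 2 or 3, its adjusted p was 0.0604, 0.062, 0.0636 and 0.0915, and it was 0.0563 when genes of every level were tested. With own-total scaling it was at -0.03 (adjusted p = 0.836). Exons of another gene on the opposite strand overlap 25.6% of the exonic bases of Rab20, and whether reads were shared was not tested.

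Among 9 tested Rabs of recycling endosomes and the plasma membrane 2 rose (22.2%) and 7 did not pass, near the 16.9% of all tested genes called higher. Rab35, which acts in fast recycling to the plasma membrane, was at 9.28, 12.3 and 11.2 FPKM in flox/flox and 15.8, 13.3 and 14.6 FPKM in labelled-knockout libraries (0.41 ± 0.12, adjusted p = 0.0368). Its call was lost without control library 1 or 3, or knockout-labelled library 1 or 3 (adjusted p = 0.0786, 0.0816, 0.0955 and 0.105). The same held when genes of every level were tested (adjusted p = 0.0731) and without the variance trend (adjusted p = 0.0533). Rab8b, of polarised exocytosis, was at 4.33, 4.62 and 4.84 FPKM against 5.59, 6.56 and 6.14 (0.37 ± 0.08, adjusted p = 0.0168), a call lost without control library 1 or knockout-labelled library 3 (adjusted p = 0.0525 and 0.0668). For both genes every labelled knockout was above every control. The more abundant Rab8a was at 13.3 to 14.1 and 14.3 to 15.2 FPKM and did not pass (0.11 ± 0.06, adjusted p = 0.195).

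Rab11a and Rab10, abundant Rabs of recycling and of insulin-responsive vesicles, differed little. Rab11a was at 25.1 to 27.1 FPKM in flox/flox and 23.0 to 26.0 FPKM in labelled-knockout libraries (-0.12 ± 0.07, adjusted p = 0.25), and Rab10 at 22.2 to 23.9 and 21.4 to 24.2 FPKM (-0.03 ± 0.07, adjusted p = 0.783). Rab12, listed with the late endosome Rabs, was at 20.6 to 22.7 and 17.9 to 24.1 FPKM (-0.07 ± 0.11, adjusted p = 0.665). With own-total scaling these passed as higher, Rab11a at 0.28, Rab10 at 0.37 and Rab12 at 0.33, close to the median of 0.36 over all genes. Rab17, a Rab of polarised epithelia, had 30, 38 and 41 reads in flox/flox and 32, 63 and 28 reads in labelled-knockout libraries. It was highest in knockout-labelled library 2, where enterocyte markers were also highest, but lowest in knockout-labelled library 3, where they were next highest. It did not pass (adjusted p = 0.549).

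Of the remaining tested members, Rab29, which acts at lysosomes and the Golgi, rose and Rab40c, a Rab with a ubiquitin-ligase adaptor domain, fell. Rab29 was at 1.44, 1.56 and 1.65 FPKM in flox/flox and 2.42, 2.51 and 2.69 FPKM in labelled-knockout libraries (0.57 ± 0.11, adjusted p = 0.00918). The groups were well apart, and the call was lost without knockout-labelled library 3 (adjusted p = 0.0527). Rab40c was at 9.87, 9.95 and 9.25 FPKM against 7.97, 8.31 and 6.998 (-0.31 ± 0.08, adjusted p = 0.0302), and turned to 0.08 with own-total scaling (adjusted p = 0.432). Its call was lost without control library 1, 2 or 3, or knockout-labelled library 1 or 3 (adjusted p = 0.0829, 0.0756, 0.0584, 0.0535 and 0.0985), and when genes of every level were tested (adjusted p = 0.0545). The 27 Rabs that did not pass had log2 differences of -0.37 to 0.66, the ends being Rab13 and Rab32.

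Below the filter lay 14 members with means of 0.0255 to 0.777 FPKM, of which Rab3c, Rab4b, Rab30 and Rab44 did not overlap between the groups. The share without overlap over all genes below the filter was not taken, so this is not read as a result about Rabs. Rab30, a Golgi Rab singled out after its values were seen, had 10, 14 and 16 reads in flox/flox and 78, 80 and 69 reads in labelled-knockout libraries. Its mean was 0.0936 ± 0.0224 and 0.386 ± 0.0396 FPKM (SD, n = 3 each), a ratio of 4.12 (exact permutation p = 0.10). When genes of every level were tested it passed, with a log2 difference of 0.58 that the pseudocount holds down (adjusted p = 0.0191). Rab44 had 0 reads in the flox/flox libraries, where a count of 0 allows up to 3 reads, and 5, 1 and 7 reads in the others. Exons of other genes cover more than 10% of the exonic bases of 9 members, so these levels are uncertain. Among them are Rab43 (75.4%), Rab4b (65.0%) and Rab2b (64.0%). They also include called Rabs, namely Rab24 (62.4%), Rab20 (25.6%), Rab6a (19.0%) and Rab33b (18.7%).

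The largest called differences among effectors of the granule Rabs exceeded that of any Rab gene. Of 17 listed genes 12 were tested, of which 5 fell (41.7%), 2 rose (16.7%) and 5 did not pass, beside 17.2% lower and 16.9% higher over all tested genes. They had a median log2 difference of -0.44 beside -0.0045 for all tested genes. Sytl4, granuphilin, which holds granules at the membrane through Rab27a, was at 61.98, 67.5 and 66.5 FPKM in flox/flox and 17.8, 21.8 and 19.1 FPKM in labelled-knockout libraries. It fell by 1.72 ± 0.09 (SE, adjusted p = 8.56e-05). Mlph, melanophilin, a Rab27a effector that links to myosin, was at 2.36, 3.07 and 2.87 FPKM against 0.636, 1.155 and 0.882 (-1.24 ± 0.18, adjusted p = 0.00365). Its labelled-knockout mean of 0.891 FPKM was under the filter, which it passed through the controls, so only a fall could be called. Sytl1, a further Rab27 effector of the same family as Sytl4, was at 21.7, 23.1 and 21.4 FPKM against 12.7, 12.5 and 12.1 (-0.80 ± 0.06, adjusted p = 0.000361). Each of these kept its call in all 6 fits without a library, and with own-total scaling.

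Unc13d, Munc13-4, a Rab27a effector of cytotoxic lymphocytes among others, rose from 0.735, 0.873 and 0.461 FPKM in flox/flox to 1.61, 1.89 and 1.54 FPKM in labelled-knockout libraries (0.89 ± 0.21, adjusted p = 0.0184). Its flox/flox mean of 0.689 FPKM was under the filter, which it passed through the labelled-knockout libraries, so only a rise could be called. The call was lost without knockout-labelled library 2 or 3 (adjusted p = 0.0556 and 0.0632). Lymphocyte markers rose in the same libraries, as given above, and their part in this difference was not tested.

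Of 10 tested exchange and GTPase-activating factors of Rab3 and Rab27 1 rose, 1 fell and 8 did not pass, with a median of -0.07. The shares called over the whole table were 16.9% higher and 17.2% lower. Rabif, a chaperone of unloaded Rabs, was at 7.92, 6.51 and 7.75 FPKM in flox/flox and 9.56, 10.6 and 9.59 FPKM in labelled-knockout libraries (0.40 ± 0.09, adjusted p = 0.0183), a call lost without knockout-labelled library 2 or 3 (adjusted p = 0.052 and 0.0556). Tbc1d10a, which inactivates Rab27a, was at 9.21, 10.03 and 9.44 FPKM against 8.30, 8.18 and 7.64 (-0.24 ± 0.07, adjusted p = 0.0378). It turned to 0.15 with own-total scaling, and its call was lost in every fit without a library (adjusted p = 0.0561 to 0.14).

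Of 6 factors for prenylation and recycling of Rabs 1 fell (16.7%) and 5 did not pass, near the 17.2% of all tested genes called lower, with a median of -0.19. Rabggta, a subunit of the enzyme that prenylates Rabs, was at 9.40, 9.42 and 8.45 FPKM in flox/flox and 6.63, 8.06 and 6.50 FPKM in labelled-knockout libraries. The groups did not overlap, and the log2 difference of -0.35 ± 0.10 (SE, adjusted p = 0.0365) turned to 0.04 with own-total scaling. Its call ended without control library 1, 2 or 3, or knockout-labelled library 1 or 3 (adjusted p = 0.0993, 0.0923, 0.0567, 0.0943 and 0.124).

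**Figure D4:**
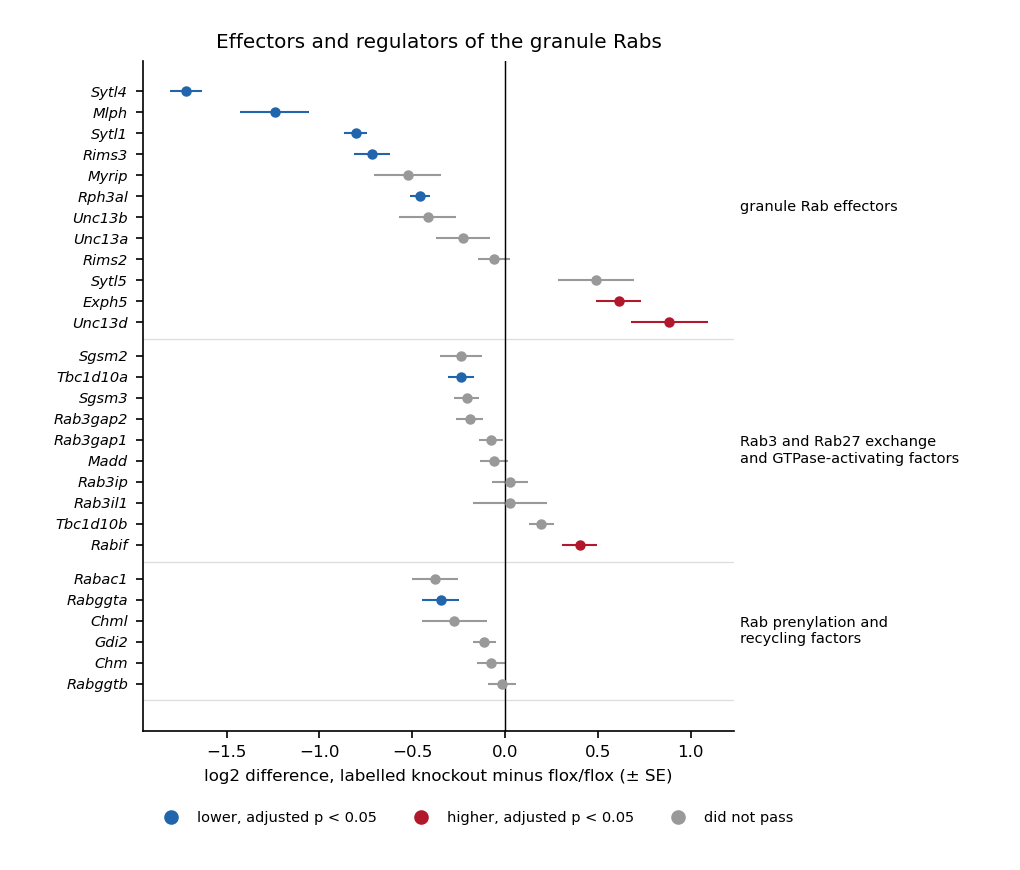
Log2 difference (labelled knockout minus flox/flox, x axis, with bars of 1 standard error) of the tested effectors, exchange and GTPase-activating factors and prenylation factors of Rabs; colours mark lower, higher and not passed. Sytl4 lies at -1.72 and Unc13d at 0.89, while the called regulators lie between -0.35 and 0.40, of which Tbc1d10a and Rabggta turn positive with own-total scaling. Unc13d passed the filter only through the labelled-knockout libraries.

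Among wider families of Rab regulators the calls were also mixed. Of 12 tested DENN domain factors 3 rose (25%) and 2 fell (16.7%), near the 16.9% and 17.2% of all tested genes. Dennd1c, a DENN factor, was at 3.38, 3.87 and 3.50 FPKM in flox/flox and 7.86, 8.18 and 8.27 FPKM in labelled-knockout libraries (1.08 ± 0.07, adjusted p = 0.000262), beside the rise of lymphocyte markers, whose part was not tested. Dennd4a rose by 0.59 ± 0.10 (adjusted p = 0.00508). Dennd2d fell by 0.50 ± 0.16 (adjusted p = 0.0467), a call lost without control library 3 or knockout-labelled library 1, 2 or 3 (adjusted p = 0.0737, 0.116, 0.0713 and 0.123). Dennd4c fell by 0.43 ± 0.12 (adjusted p = 0.0374). It did not pass without control library 1 or 3 or knockout-labelled library 1, 2 or 3 (adjusted p = 0.103, 0.114, 0.0954, 0.0569 and 0.106).

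Of 27 tested TBC domain factors 5 fell and 0 rose, beside 17.2% of all tested genes called lower and 16.9% called higher. Tbc1d22b fell by 0.64 ± 0.07, from 15.8, 16.8 and 15.1 FPKM to 9.67, 10.4 and 9.996 (adjusted p = 0.00108). Tbc1d1, a regulator of glucose transporter vesicles in muscle, fell by 0.37 ± 0.06 (adjusted p = 0.00646) and was at 0.02 with own-total scaling. Tbc1d31 fell by 0.51 ± 0.15 and Tbc1d17 by 0.39 ± 0.10 (adjusted p = 0.0422 and 0.0296). Tbc1d31 lost its call in every fit without a library (adjusted p = 0.0585 to 0.12), and Tbc1d17 without control library 1 or 3 or knockout-labelled library 1, 2 or 3 (adjusted p = 0.0848, 0.087, 0.0673, 0.0543 and 0.101). Among 5 effectors of Rab11, Rab11fip2 rose by 0.46 ± 0.07 (adjusted p = 0.00482). Rab11fip3 fell by 0.24 ± 0.08 (adjusted p = 0.0483) and turned to 0.13 with own-total scaling. Its call was lost without control library 2 or 3, or knockout-labelled library 1, 2 or 3 (adjusted p = 0.111, 0.115, 0.118, 0.0759 and 0.133).

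The direction of several Rabs depended on the scaling. Of the 13 Rabs lower by median of ratios, 4 (Rab24, Rab6a, Rab34 and Rab36) also passed as lower with own-total scaling, and 5 turned direction (Rab27a, Rab2a, Rab1b, Rab5c and Rab40c). All 5 higher Rabs passed as higher in both. Own-total scaling moved the median of all tested genes to 0.36 and called 52.1% of them higher. Agreement on rises was therefore favoured in advance and is not a check of them.

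**Figure D5:**
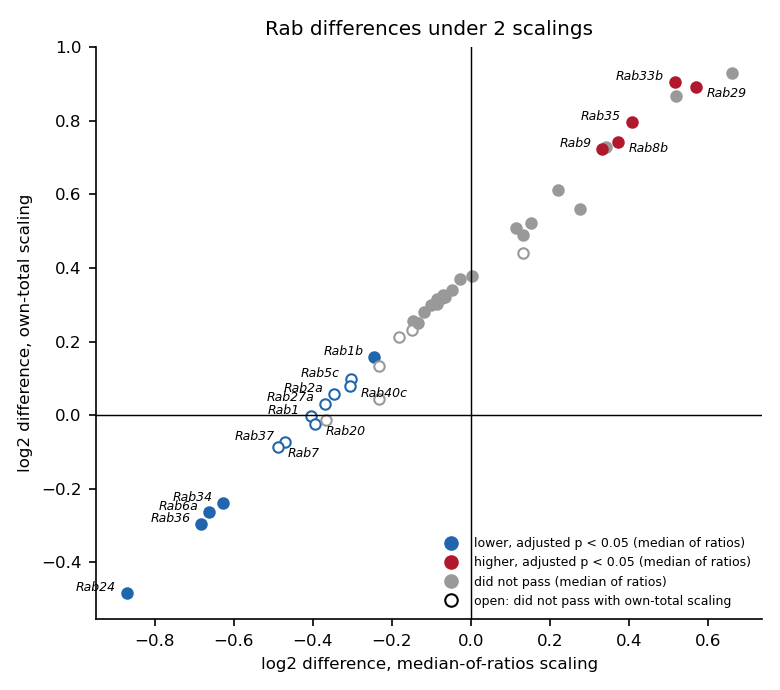
Log2 difference of each of the 45 tested Rabs with median-of-ratios scaling (x axis) against own-total scaling (y axis), colours giving the call on the x axis and open circles the genes that did not pass on the y axis. Points lie along a line shifted upward, with Rab24 lowest at -0.87 and -0.48 and Rab27a at -0.37 and 0.03.

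METTL3 writes m6A within a short consensus of which GGACT is a common form. The longest coding transcript of each Rab in GENCODE M21 was searched for it, although m6A itself was not measured in these libraries. The median density was 0.856 per kilobase of transcript in the 13 lower Rabs, 0.845 in the 5 higher and 0.931 in the 27 that did not pass. Over all tested genes with such a transcript it was 1.05, and it was 1.11 for genes called lower and 1.09 for genes called higher. Lower and higher Rabs had nearly the same median.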

How the data were processed

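RNA-seq of islets gave 6 libraries, 3 per group. The deposited table holds FPKM per gene, which the authors made with DESeq2 1.16.1, HISAT2 2.0.5 and featureCounts 1.5.0-p3 on GRCm38.p6, per the submitters' processing notes, which name the tools without their roles. Strandedness is not given in the sources used here. Deposited FPKM times gene length fell on whole multiples of 1 read (tolerance 0.1 of a read), which gave the reads per gene and library. Median-of-ratios factors over 19623 genes were all 1, so the FPKM were used as they stand. Intervals and floors from reads cover counting error only.

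Log2(FPKM + 0.5) was fitted with limma 3.58.1 in R 4.3.3 (moderated variance with a mean trend) for genes with a mean of at least 1 FPKM, with Benjamini-Hochberg adjustment over all 14497. Since fold changes are on this scale, they understate changes of low genes. Sums and shares were compared with exact permutation tests, which cannot go below 0.10 for 3 against 3. In data simulated for this comparison (13970 genes, 200 changed), the fit recovered 64% of changes of 1.5-fold and 82% of changes of 2-fold. The simulation gave every gene the same added spread and changed far fewer genes than the 4935 called here. Its recovery therefore does not measure the power of the real comparison. No other columns of per-sample values were used (0 found).

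Members and gene lists were chosen with earlier results of these data known. Every granule Rab, every other called Rab, the 6 most abundant Rabs not called, and up to 4 called genes per effector or regulator list were named. Rab6b, Rab8a, Rab13, Rab17, Rab30, Rab32, Rab38, Rab42, Rab44 and the overlapping genes were named after their values were seen. Alternatives were other pseudocounts, filters, scalings, variance settings, a replicate block and leaving out libraries. Exonic overlap came from GENCODE M21, and promoter windows from RefSeq. A member of the list of prenylation and recycling factors is not reported here.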

Additional observations from a re-analysis of the deposited data

How the results depend on the processing

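Among 43 named genes, 35 of them called, all kept their direction and side of the threshold with a pseudocount of 0.1 or 1. Of the 18 Rab calls 8 held in all 6 fits without a library. Over all genes those fits called 18.8% to 29.1%, against 34.0% with every library. The fit with no filter, which tested genes of every level, called 13.2% of all genes. Rab genes called numbered 31 with own-total scaling, 8 to 17 when a library was left out (8 without labelled-knockout replicate 3) and 5 without labelled-knockout replicates 2 and 3, an alternative chosen after seeing the data. That fit holds 1 labelled knockout, assumed to vary like the controls, and its calls over all genes fell from 4935 to 1132, so its counts are not particular to Rabs. Granule Rab genes called numbered 2, against 1 with no filter, 1 to 2 when a library was left out, and 0 by limma without labelled-knockout replicates 2 and 3 (1 at an unadjusted p under 0.05). With own-total scaling 2 were called, both higher. The difference in summed FPKM turned from -17.2 to 12.3 for granule Rabs and from -109 to 96.2 for the others with own-total scaling. Leaving out a library gave -21.7 to -14.2 and -126 to -98.4.

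With own-total scaling these log2 differences turned positive: Rab27a 0.0313, Rab3d 0.25, Rab2a 0.0571, Rab1b 0.16, Rab5c 0.10, Rab40c 0.0781, Rab18 0.32, Rab5a 0.30, Rab11a 0.28, Rab10 0.37, Rab12 0.33, Rab5b 0.31, Tbc1d10a 0.15, Rabggta 0.0352, Tbc1d1 0.0234 and Rab11fip3 0.13. This scaling moved the median of all tested genes to 0.36. It divides by total reads, which include those of the insulin genes. In flox/flox libraries 1 to 3, Ins2 had 4394178, 3246928 and 3854838 reads of totals of 17691055, 16398862 and 16781187. In labelled-knockout libraries 1 to 3 it had 2313996, 2000820 and 2119179 reads of totals of 18387313, 16719393 and 17723774. Ins1 had 983442 to 1199508 reads in flox/flox and 408153 to 457378 in labelled-knockout libraries. The part of these reads in the shift was not tested. With quantile normalization Rab18 was at 0.0076, Rab10 at 0.0695 and Rab12 at 0.0151. With a library left out, Rab10 ranged from -0.0777 to 0.0077 (without labelled-knockout replicates 1 and 3 in turn) and Rab12 from -0.18 to 0.0299 (without 1 and 2 in turn). Without labelled-knockout replicates 2 and 3 together, Rab18 was at 0.00011, Rab5a at 0.0157, Rab10 at 0.0696, Rab12 at 0.15 and Rab5b at 0.0308. The cause was not tested.

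The labels number replicates 1 to 3 in each group, but deviations of same-numbered libraries correlated at 0.0811, 0.0751 and 0.0423, none above 0.1, so the numbers were not taken as pairs. With the replicate block, 17 Rabs were called (13 lower and 4 higher), 1 of them a granule Rab. Over all tested genes that fit called 32.1%, with 16.2% lower and 16.0% higher. Rab27a and Rab35 lost their calls (adjusted p = 0.0565 and 0.0776) and Rab13 gained one (adjusted p = 0.0295). Each library correlated best with its own number, a hint from the data and not the design. Depth limits Rab3a, Rab38, Rab42 and Rab44, with 13 reads or fewer in any library.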
